A study of Mus musculus with 2 samples.

Results

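The 8 genes Flt3, Csf1r, Csf2ra, Csf2rb, Csf2rb2, Csf3r, Kit and Il7r encode receptors, or chains of receptors, for growth factors of myeloid and dendritic cells and their relatives. They were chosen by name, all 8 were found among the 20451 genes of the deposited tables, and their levels were mapped over the cell types of the mouse thymus and between both genotypes. The Mgl2DTR_eGFP mice carry, as their name says, a diphtheria toxin receptor and eGFP tied to Mgl2, a gene of a subset of dendritic cells and macrophages. They received 500 ng of the toxin and were examined 48 h later, and the wild type (WT) mice, B6WT by their hashtag, were of the same age, 7 weeks. The labels do not say whether WT mice received toxin, how many mice there were, or whether cells of several mice were pooled. In both genotypes, thymus was digested with collagenase, cells bearing CD90.2 were depleted, and live CD11c and CD11b stained cells were sorted. The cells were read as 1 pool of droplets, and a hashtag told the genotypes apart. Each genotype is therefore 1 sample: levels and ratios carry intervals for counting error only, and no test between genotypes is possible.

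Growth factor receptors tell which survival and maturation signals a cell can receive. FLT3, KIT and the CSF1 receptor are receptor tyrosine kinases: FLT3 ligand drives dendritic cell development, stem cell factor acts on progenitors and mast cells through KIT, and CSF1 and IL-34 maintain monocytes and macrophages through Csf1r. The others are cytokine receptors that signal through JAK kinases and STAT proteins. Csf2ra is the ligand-binding chain for GM-CSF and Csf2rb its signalling partner, which IL-3 and IL-5 receptors share, while Csf2rb2 is a mouse duplicate of that chain used for IL-3. Csf3r binds G-CSF, the main growth factor of neutrophils. Il7r pairs with Il2rg to bind IL-7, which thymocytes and innate lymphoid cells need, and with Crlf2 to bind TSLP.

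All 8 genes are protein coding in GENCODE vM21 on GRCm38. Flt3 (chr5:147330741-147400489, minus strand) and Kit (chr5:75574916-75656722, plus strand) share chromosome 5. Csf2rb2 (chr15:78282507-78305721, minus strand) and Csf2rb (chr15:78325752-78353847, plus strand) are neighbours that point away from each other, 20030 bases apart, and Il7r (chr15:9505788-9530176, minus strand) lies elsewhere on chromosome 15. Csf3r is at chr4:126024550-126044440 (plus) and Csf2ra at chr19:61223957-61228429 (minus). The antisense gene Gm26597 overlaps Flt3. Csf2rb and Csf2rb2 are near copies, so reads could be shared: of the 90-base windows in the last 600 bases of Csf2rb transcripts, where 3′ libraries read, 70 of 1582 (4.42%) also occurred in Csf2rb2 transcripts, and 0 of 1022 the other way.

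The start regions of 4 of the genes are printed because their patterns differ most below: Csf3r marks neutrophils, Csf2rb2 plasmacytoid dendritic cells, and Kit and Flt3 are both held by type 1 dendritic cells. They are RefSeq promoter sequences on GRCm38.p6, from up to 250 bases before the RefSeq start to the GENCODE gene start, 5′ to 3′ on the strand of the gene: Csf3r chr4:126024409-126024549 (plus), Csf2rb2 chr15:78305722-78305971 (minus), Kit chr5:75574737-75574915 (plus) and Flt3 chr5:147400490-147400739 (minus). Capitals mark the letters GAGGAA, or TTCCTC on the other strand, which the myeloid factor PU.1 prefers.
Csf3r: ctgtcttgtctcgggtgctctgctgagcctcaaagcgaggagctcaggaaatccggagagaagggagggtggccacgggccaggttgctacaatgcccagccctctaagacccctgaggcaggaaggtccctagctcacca
Csf2rb2: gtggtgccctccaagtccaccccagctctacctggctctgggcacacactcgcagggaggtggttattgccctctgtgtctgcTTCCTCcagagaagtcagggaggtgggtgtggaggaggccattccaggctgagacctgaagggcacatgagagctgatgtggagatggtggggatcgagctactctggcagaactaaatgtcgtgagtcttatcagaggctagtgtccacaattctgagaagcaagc
Kit: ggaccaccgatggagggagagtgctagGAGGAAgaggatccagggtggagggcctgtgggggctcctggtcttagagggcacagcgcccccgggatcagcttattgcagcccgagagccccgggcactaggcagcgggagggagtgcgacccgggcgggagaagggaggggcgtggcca
Flt3: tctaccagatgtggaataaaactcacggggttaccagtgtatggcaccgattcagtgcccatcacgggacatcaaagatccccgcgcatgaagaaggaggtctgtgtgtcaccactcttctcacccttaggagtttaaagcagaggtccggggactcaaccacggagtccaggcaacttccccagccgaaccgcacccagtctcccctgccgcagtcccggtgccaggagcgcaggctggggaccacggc
Csf2rb2 and Kit held 1 such match each, and Csf3r and Flt3 held 0. These letters stand in 23.3% of the 32851 mouse promoters of 250 bases, so a match is a description of the sequence and no sign of binding. TTGCNNAA, a C/EBP motif in 9.56% of promoters, and TGTGGT, a RUNX motif in 14.0%, searched on both strands, were in none of these 4 stretches.

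The tables held 28926 cells. Of these, 7433 carried the Mgl2DTR hashtag alone (median 6930 UMIs) and 11586 the WT hashtag alone (median 7820 UMIs), and the 9829 cells with a pair of hashtags (34.0%) were left out. Mgl2 itself stood at 17.9 CPM (counts per 1000000 UMIs, summed over the cells of a group) in Mgl2DTR cells and at 109 CPM in WT cells. Clusters were named from marker genes, and 10 classes had at least 50 cells of each genotype. The sort was for CD11c and CD11b after removal of CD90.2 cells, yet 459 Mgl2DTR and 2128 WT cells were T cell or thymocyte-like by their markers, and B cell-like and NK or innate lymphoid cell-like cells were present too. Droplets with cells of the same genotype cannot be seen by hashtag. By their likeness to the cells with a pair of hashtags, 2067 Mgl2DTR cells (27.8%) and 3191 WT cells (27.5%) were called doublets. Many levels are therefore given with and without them. Of those pairs, 4755 held both genotype hashtags, and whether all the others are doublets was not tested. The call also took most cells of some shallow clusters, such as 92.5% of cluster 27 (median 1544 UMIs). From the cells with both genotype hashtags, 1525 Mgl2DTR and 3706 WT doublets of the same genotype were expected. The cut was set on their total only, so more than expected were called in Mgl2DTR and fewer in WT.

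Each receptor had its own order of cell types. In WT cells, Flt3 and Csf2rb were highest in activated dendritic cell-like cells, Csf1r in macrophage-like, Csf2ra in monocyte-like, Csf2rb2 in pDC-like (plasmacytoid dendritic cell-like), Csf3r in neutrophil-like, Kit in cDC1-like (type 1 conventional dendritic cell-like) and Il7r in NK or innate lymphoid cell-like cells. Leaving out the called doublets or the cells with markers of other lineages gave the same highest class for all 8. The plot of receptor levels by class shows these orders.

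**Figure D1:**
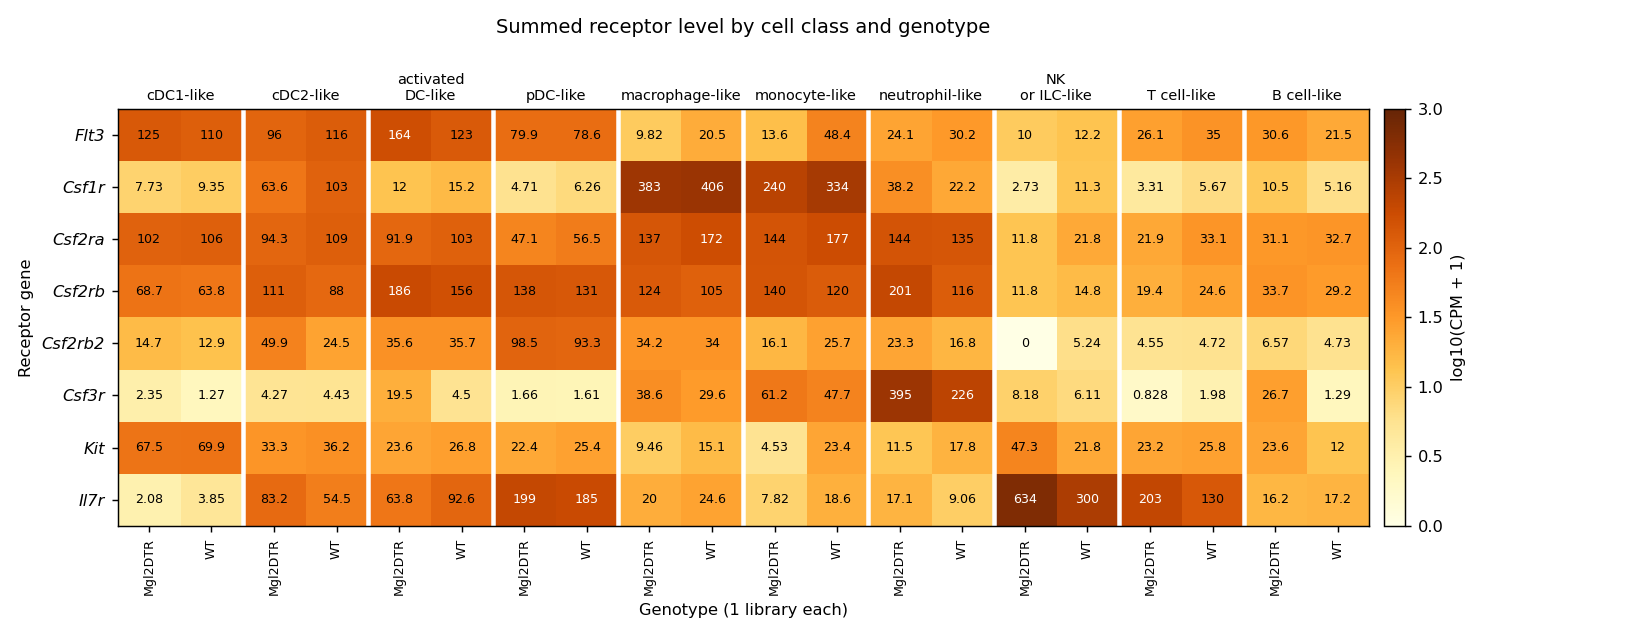
Heat map of the level of each of the 8 receptors (rows) in 10 classes of thymus cells (columns, Mgl2DTR beside WT), with the summed CPM written in each field and the colour giving log10(CPM + 1). Csf3r stands at 395 CPM in Mgl2DTR and 226 CPM in WT neutrophil-like cells, and Il7r at 634 and 300.3 CPM in NK or innate lymphoid cell-like cells, each far above the other classes of its row except Il7r in pDC-like and T cell or thymocyte-like cells.

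Flt3 was the receptor of the dendritic classes. Activated dendritic cell-like cells held 165 CPM in Mgl2DTR and 123 CPM in WT, cDC2-like cells (type 2 conventional dendritic cell-like) 96.0 and 116 CPM, cDC1-like cells 125 and 110.5 CPM, and pDC-like cells 79.9 and 78.6 CPM. In WT, each of the first 3 met the next by its interval, and the pDC-like level lay below them. All other classes were lower, down to 9.82 CPM in Mgl2DTR macrophage-like and 12.2 CPM in WT NK or innate lymphoid cell-like cells. A Flt3 UMI was found in 74.6% of Mgl2DTR and 73.7% of WT cDC1-like cells (median 13766 and 14364 UMIs), against 8.50% and 10.1% of T cell or thymocyte-like cells (median 3456 and 3131 UMIs), where Flt3 should be absent outside the earliest progenitors. Thinned to 2000 UMIs a cell, the cDC1-like shares were 23.2% and 20.6%.

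Within the classes, Flt3 differed between clusters. Cluster 8, a shallow cDC1-like cluster with a median of 1907.5 UMIs, of whose cells 87.2% were called doublets, had 285 CPM in Mgl2DTR and 262 CPM in WT cells, and cluster 3, activated dendritic cell-like, had 219 and 168 CPM. Of the T cell or thymocyte-like clusters, cluster 25 held 91.7 and 98.0 CPM, and 97.7% of its cells were called doublets, while cluster 0, the largest, held 7.78 and 8.91 CPM. Over the T cell or thymocyte-like class Flt3 was 26.1 and 35.0 CPM, and 7.004 and 8.65 CPM without called doublets.

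Kit was a cDC1-like receptor among these classes: 67.6 CPM in Mgl2DTR and 69.9 CPM in WT, with the WT interval (67.3 to 72.6 CPM) apart from that of the next class. cDC2-like cells followed with 33.3 and 36.2 CPM. From activated dendritic cell-like (23.6 and 26.8 CPM) down to B cell-like cells (23.7 and 12.04 CPM), each WT interval met that of the next class, so those neighbours were not told apart. A Kit UMI was in 52.0% of Mgl2DTR and 56.3% of WT cDC1-like cells, against 4.31% and 9.77% of neutrophil-like cells (median 2010 and 3886 UMIs), which should lack it. Flt3 and Kit were found together in 42.9% of Mgl2DTR and 44.8% of WT cDC1-like cells and in 11.9% and 16.8% of cDC2-like cells. Thinned to 2000 UMIs, the cDC1-like shares with both were 4.203% and 2.61%.

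Csf1r lies on chromosome 18 (chr18:61100598-61132149, plus strand), with Hmgxb3 overlapping it on the other strand. It was highest in macrophage-like cells, at 383 CPM in Mgl2DTR and 406 CPM in WT, then in monocyte-like cells at 240.3 and 334 CPM and in cDC2-like cells at 63.6 and 103 CPM. The WT intervals of these 3 classes did not meet one another. In all other classes it was at most 38.2 CPM in Mgl2DTR and 22.2 CPM in WT, the level of neutrophil-like cells. A Csf1r UMI was in 73.6% of Mgl2DTR and 82.1% of WT macrophage-like cells (median 6911 and 9804.5 UMIs) and in 77.6% and 90.03% of monocyte-like cells (median 8928.5 and 5632 UMIs), against 1.53% and 2.68% of T cell or thymocyte-like cells (median 3456 and 3131 UMIs), whose level without called doublets was 2.92 and 3.91 CPM. The highest WT class changed to monocyte-like with another resolution of the clusters, with the receptors kept among the clustering genes, and when cells were given equal totals.

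Of the GM-CSF receptor, Csf2ra was spread over all myeloid and dendritic classes and lowest among them in pDC-like cells. Monocyte-like (144 CPM in Mgl2DTR, 177 CPM in WT), macrophage-like (137 and 172 CPM) and neutrophil-like cells (144 and 135 CPM) were highest. cDC2-like (94.3 and 109 CPM), cDC1-like (102 and 106 CPM) and activated dendritic cell-like cells (91.9 and 103 CPM) formed a level that WT intervals did not split. pDC-like cells held 47.1 and 56.5 CPM, and the lymphoid classes at most 31.1 CPM in Mgl2DTR and 33.1 CPM in WT. Without called doublets, Csf2ra in pDC-like cells was 25.1 and 30.8 CPM.

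Its signalling partner Csf2rb had another order. Activated dendritic cell-like cells had 186 CPM in Mgl2DTR and 156 CPM in WT, pDC-like cells 138 and 131 CPM, monocyte-like cells 140.1 and 120 CPM, and neutrophil-like cells 201 and 117 CPM. Between pDC-like and macrophage-like cells (124 and 105 CPM), each WT interval met that of the next class. cDC1-like cells held less, 68.7 and 63.8 CPM. Csf2rb2, the chain used for IL-3, stood at 98.5 and 93.3 CPM in pDC-like cells, against 35.6 and 35.7 CPM in activated dendritic cell-like cells, the next class. A Csf2rb2 UMI was in 49.8% of Mgl2DTR and 50.7% of WT pDC-like cells (median 5992.5 and 6249 UMIs), and in 2.18% and 2.02% of T cell or thymocyte-like cells (median 3456 and 3131 UMIs).

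Csf2ra and Csf2rb, the parts of a GM-CSF receptor, were found in the same cell at similar shares in monocyte-like, macrophage-like and cDC1-like cells. The shares were 45.7% of Mgl2DTR and 39.9% of WT monocyte-like cells, 38.6% and 45.9% of macrophage-like cells, 38.2% and 40.2% of cDC1-like cells and 31.5% and 31.9% of cDC2-like cells. pDC-like cells, with their high Csf2rb, held both in 14.2% and 18.2%, near the share of Csf2ra alone (20.3% and 25.8%). The pDC-like class includes cluster 22 (106 and 165 cells), all of whose cells were called doublets. Its Csf2ra was 94.05 CPM in WT, against 32.4 CPM in cluster 1, the main pDC-like cluster. The part of doublets in the pDC-like shares was not tested. T cell or thymocyte-like cells held both in 2.83% and 3.71%. Thinned to 2000 UMIs, the highest share in WT was 8.15% in monocyte-like cells, and no class reached 10%. The plot of cells with both chains shows these shares.

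**Figure D2:**
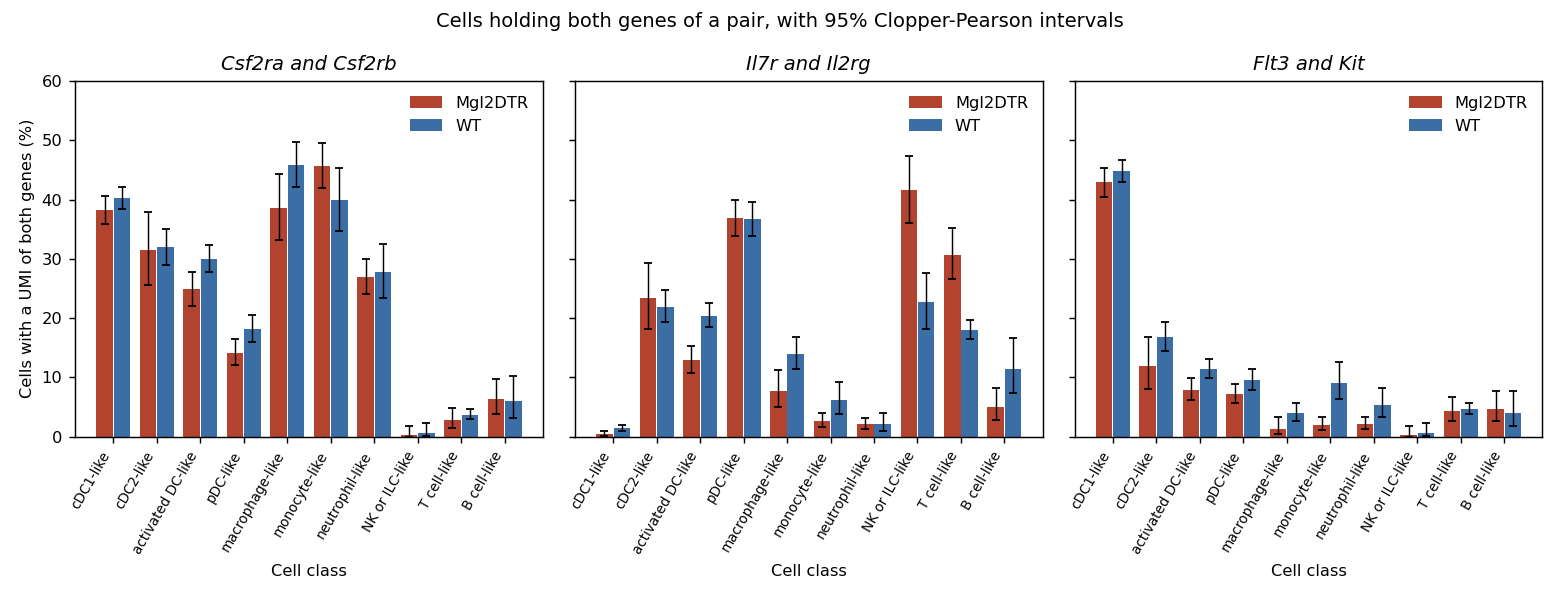
Share of cells (%) in which UMIs of both genes of a pair were found, by class, Mgl2DTR beside WT, with 95% Clopper-Pearson intervals for counting error. Flt3 with Kit peaks in cDC1-like cells at 42.9% in Mgl2DTR and 44.8% in WT, and Il7r with Il2rg in NK or innate lymphoid cell-like cells (41.6% in Mgl2DTR, 22.7% in WT) and pDC-like cells (36.8% in Mgl2DTR, 36.7% in WT).

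Csf3r was a neutrophil receptor here. Neutrophil-like cells held 395 CPM in Mgl2DTR and 226 CPM in WT, monocyte-like cells 61.2 and 47.7 CPM and macrophage-like cells 38.6 and 29.6 CPM, with WT intervals that did not meet. In WT every other class was at or below 6.11 CPM. A Csf3r UMI was in 79.1% of Mgl2DTR and 67.4% of WT neutrophil-like cells although these were shallow (median 2010 and 3886 UMIs), and in 0.436% and 0.846% of T cell or thymocyte-like cells. Csf1r and Csf3r were found together in 33.3% of Mgl2DTR and 26.7% of WT monocyte-like cells.

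Il7r was held by lymphoid cells and by plasmacytoid cells. NK or innate lymphoid cell-like cells had 634 CPM in Mgl2DTR and 300.3 CPM in WT, pDC-like cells 199 and 185 CPM, T cell or thymocyte-like cells 203 and 130.3 CPM, and activated dendritic cell-like cells 63.8 and 92.6 CPM. WT intervals of neighbouring classes did not meet down to macrophage-like cells at 20.01 and 24.6 CPM. Il7r was lowest in cDC1-like cells, at 2.08 and 3.85 CPM. An Il7r UMI was in 66.7% of Mgl2DTR and 68.6% of WT pDC-like cells (median 5992.5 and 6249 UMIs) and in 4.08% and 4.37% of neutrophil-like cells (median 2010 and 3886 UMIs), which should lack it. Thinned to 2000 UMIs, the pDC-like shares were 37.6% and 34.3%, against 3.38% and 1.02% in neutrophil-like cells.

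Within classes, Il7r followed clusters. Cluster 20, 1 of the pair of NK or innate lymphoid cell-like clusters, held 796 CPM in Mgl2DTR and 557 CPM in WT. There 6 of 10 NK markers and 58.3% of the T cell or thymocyte list counted. Cluster 23, where all 10 NK markers counted, held 101 and 18.3 CPM. T cell or thymocyte-like cluster 0 held 291 and 227 CPM, the cycling cluster 28 held 134 and 167 CPM, and cluster 19, where all 12 thymocyte markers counted, held 0 and 11.8 CPM (18 and 372 cells, where a count of 0 allows up to 101 CPM in Mgl2DTR). Activated dendritic cell-like cluster 10 held 188 and 209 CPM. Il7r with Il2rg, the parts of the IL-7 receptor, was found in 41.6% of Mgl2DTR and 22.7% of WT NK or innate lymphoid cell-like cells, 36.8% and 36.7% of pDC-like cells, 30.7% and 18% of T cell or thymocyte-like cells, and 0.437% and 1.42% of cDC1-like cells. Il2rg stood at 367 and 328 CPM in NK or innate lymphoid cell-like cells and at 11.9 and 15.97 CPM in cDC1-like cells.

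Between the genotypes, most receptor ratios within a class were not called by the rule below, though a larger share was called than of all genes. A ratio of Mgl2DTR over WT was called when it was at least 1.5 either way, its exact interval lay wholly on that side of 1, and at least 50 UMIs were counted. Of 80 pairs of a receptor and a class, 70 had the counts, and 13 were called higher and 10 lower. Of all measured ratios of a gene in a class, 4.13% were called higher and 3.92% lower. Over all cells, Csf3r stood at 41.3 CPM in Mgl2DTR and 11.6 CPM in WT (ratio 3.55, 3.33 to 3.79), and the other 7 had ratios between 0.868 and 1.20. Of the 13 higher calls, 4 were of Csf3r, 4 of Il7r, 2 of Kit, and 1 each of Csf1r, Csf2rb and Csf2rb2; of the 10 lower calls, 4 were in monocyte-like cells. Without the called doublets 52 ratios could be measured, and 6 were higher and 3 lower. No share of all genes is given for that setting. By single clusters, 147 ratios could be measured, with 14 called higher and 11 lower, against 4.54% and 4.17% of all genes. The plot of ratios by class shows which were called.

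**Figure D3:**
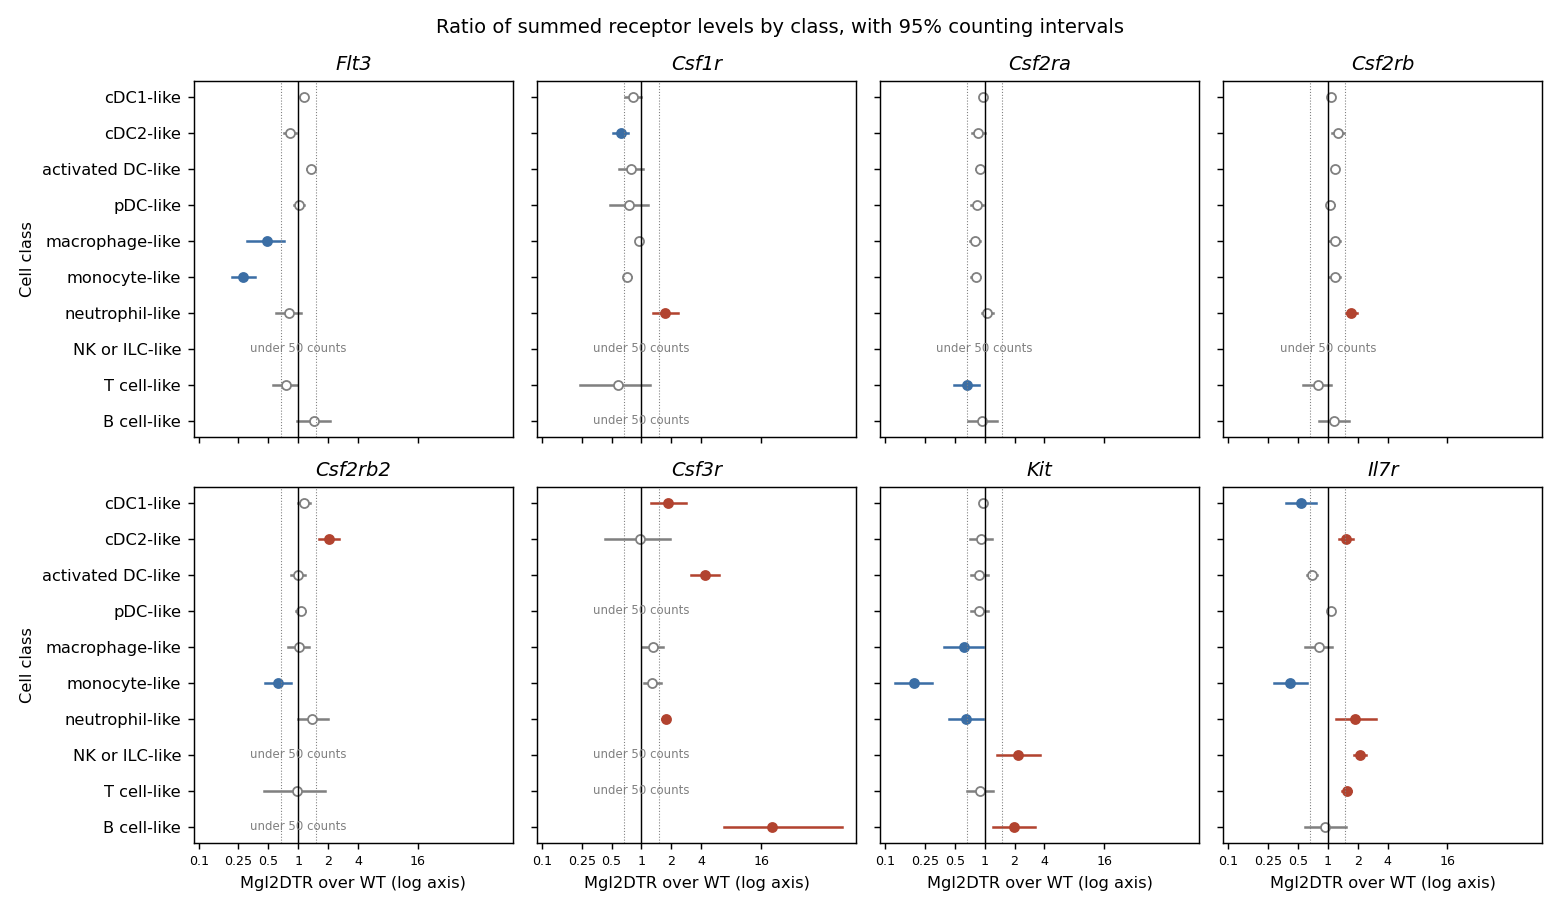
Ratio of Mgl2DTR over WT of the summed CPM of each receptor in each class (log axis), with exact 95% intervals for counting error; dotted lines mark 1.5 either way, filled red points are called higher, filled blue lower, and open grey points are not called. Most points lie between the dotted lines, while in monocyte-like cells Kit (0.194) and Flt3 (0.281) lie far to the low side and Csf3r in B cell-like (20.7) and activated dendritic cell-like cells (4.33) to the high side.

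Neutrophil-like cells were more frequent in Mgl2DTR, and 4 receptors were called higher and 1 lower in them. They were 11.9% of Mgl2DTR cells (882) and 3.36% of WT cells (389). Csf3r stood at 395 CPM in Mgl2DTR and 226 CPM in WT (ratio 1.75, 1.60 to 1.91), Csf2rb at 201 and 117 CPM (1.72, 1.52 to 1.95), Csf1r at 38.2 and 22.2 CPM (1.72, 1.29 to 2.32) and Il7r at 17.1 and 9.07 CPM (1.88, 1.20 to 3.03). The Csf1r ratio was 1.41 without called doublets, 1.26 without cells holding other markers and 1.17 with equal totals per cell, all under 1.5, and that of Il7r was 1.04 with equal totals. Csf3r (1.59) and Csf2rb (2.05) were still called without called doublets. Kit stood at 11.5 and 17.8 CPM (0.648, 0.435 to 0.964), a direction that turns round (1.97) when cells are given equal totals. Of all genes measured in the class, 6.80% were called higher and 6.70% lower.

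The class is made of unlike clusters, and the genotypes filled them unequally. Cluster 7, with 6 of 12 neutrophil markers counted, held 650 Mgl2DTR and 125 WT cells, and cluster 18, with all 12, held 204 and 242. Csf3r stood at 1189 CPM in Mgl2DTR and 1318 CPM in WT within cluster 7, and at 109.7 and 115 CPM within cluster 18. Neither was called, so the class ratio of Csf3r was not found within either cluster. Csf2rb was 452 and 328 CPM in cluster 7 and 107 and 96.2 CPM in cluster 18, not called in either. Without called doublets, Csf2rb was called higher in cluster 7 (474 and 288 CPM, 1.64, 1.25 to 2.21) and Csf1r lower (74.4 and 123.5 CPM, 0.603, 0.379 to 0.993). No share of all genes is given for that setting. Csf1r was called higher in cluster 18 (26.4 and 16.2 CPM; 1.62, 1.09 to 2.45), as was Il7r (16.3 and 8.55 CPM; 1.90, 1.11 to 3.38), but without called doublets Csf1r was 12.49 and 10.9 CPM and Il7r 4.32 and 1.37 CPM, under the 50 counts that a ratio needs. In cluster 18, 3.14% of all genes were called higher. With called doublets left out, Il7r of the class was 5.32 and 1.81 CPM and Kit 6.88 and 8.44 CPM. The pDC marker list summed to 923 CPM in Mgl2DTR and 775 CPM in WT neutrophil-like cells (4 of 10 measured markers higher) and the cDC1 list to 592 and 845 CPM (5 of 10 lower), and their part in these ratios was not tested.

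**Figure D4:**
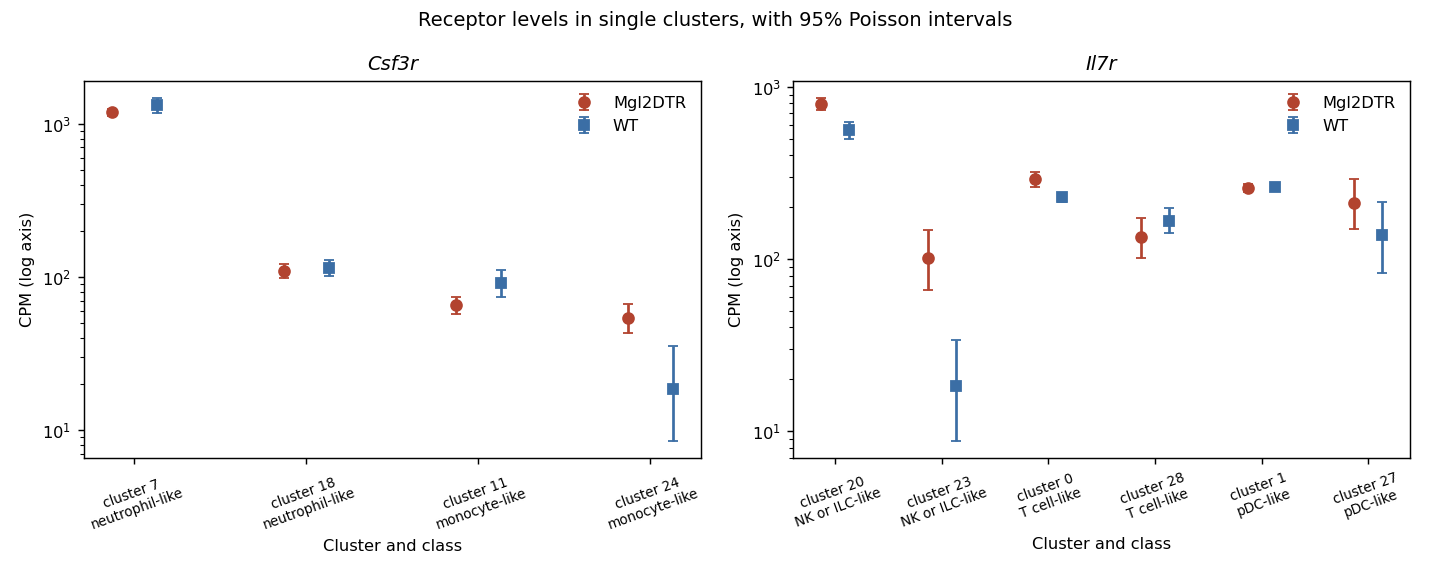
Summed CPM (log axis) of Csf3r in neutrophil-like and monocyte-like clusters and of Il7r in lymphoid and pDC-like clusters, Mgl2DTR beside WT, with 95% exact Poisson intervals. Csf3r is 1189 CPM in Mgl2DTR and 1318 CPM in WT cells of cluster 7 and 109.7 and 115 CPM in cluster 18, so these clusters differ far more than the genotypes within them, while in cluster 24, where all 53 WT cells were called doublets, it is 54.1 and 18.7 CPM.

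Monocyte-like cells, also more frequent in Mgl2DTR (696 cells, 9.36%) than in WT (341 cells, 2.94%), had 4 receptors called lower, and 10.6% of all genes in the class were called lower. Flt3 stood at 13.6 CPM in Mgl2DTR and 48.4 CPM in WT (ratio 0.281, 0.215 to 0.365), Kit at 4.53 and 23.4 CPM (0.194, 0.124 to 0.298), Il7r at 7.82 and 18.6 CPM (0.420, 0.285 to 0.620) and Csf2rb2 at 16.1 and 25.7 CPM (0.624, 0.464 to 0.845). In WT, each of these was highest in a dendritic or lymphoid class, but Csf2rb2 also stood at 34.0 CPM in macrophage-like cells. Marker lists of dendritic and lymphoid cells were lower too. The cDC1 list summed to 670 CPM in Mgl2DTR and 1507 CPM in WT (9 of 10 measured markers lower). The pDC list stood at 653 and 934 CPM (7 of 10 lower). The T cell or thymocyte list was 69.6 and 262 CPM (10 of 11 lower). The part of these lists in the ratios was not tested. With called doublets left out (534 and 194 cells), Flt3 was 5.49 and 10.2 CPM, Kit 1.22 and 1.85 CPM and Il7r 2.64 and 7.38 CPM, all under the 50 counts that a ratio needs. Csf2rb2 was then 14.0 and 23.99 CPM (0.585, called lower), and 14.5 and 23.5 CPM without cells holding markers of other lineages (0.618, called lower).

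Of the receptors that monocytes are known for, Csf1r stood at 240.3 CPM in Mgl2DTR and 334 CPM in WT (0.719, 0.665 to 0.779, not called). Without called doublets it was 291 and 462 CPM (0.630, 0.569 to 0.699, called lower), and without cells holding markers of other lineages 264 and 461 CPM (0.572, 0.522 to 0.627, called lower). Csf2ra stood at 144 and 177 CPM, Csf2rb at 140.1 and 120 CPM and Csf3r at 61.2 and 47.7 CPM, and none of these 3 was called. In cluster 11, the main one (397 and 216 cells), Csf1r was 338 and 501 CPM (0.673, 0.608 to 0.746, not called), Csf2ra 153 and 234 CPM (0.656, called lower, but 0.766 without called doublets and 0.687 without cells holding other markers, not called) and Csf2rb2 14.6 and 27.4 CPM (0.532, called lower), where 6.28% of all genes were called lower. In cluster 24 (184 and 53 cells), Csf1r was 207 and 533 CPM (0.388, 0.328 to 0.459) and Csf3r 54.1 and 18.7 CPM (2.89, 1.45 to 6.54). Without called doublets cluster 24 kept 137 Mgl2DTR cells and 0 of its 53 WT cells, so no ratio was left. There the macrophage list summed to 2520 CPM in Mgl2DTR and 15840 CPM in WT (7 of 9 measured markers lower) and the neutrophil list to 6084 and 930.5 CPM (10 of 11 higher), and 20.6% of all genes were called higher and 14.3% lower. The part of these other cells was not tested.

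Macrophage-like cells held Csf1r at 383 CPM in Mgl2DTR and 406 CPM in WT, a ratio of 0.943 whose interval (0.878 to 1.01) spans 1. Flt3 (9.82 and 20.5 CPM; 0.478, 0.305 to 0.724) and Kit (9.46 and 15.1 CPM; 0.627, 0.392 to 0.968) were called lower, against 2.36% of all genes in the class. Without called doublets these were 3.87 and 5.003 CPM for Flt3 and 7.10 and 7.18 CPM for Kit, under the 50 counts that a ratio needs. The cDC1 list summed to 643.5 CPM in Mgl2DTR and 834 CPM in WT macrophage-like cells (3 of 10 measured markers lower), and its part was not tested.

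cDC2-like cells, the dendritic cells that Mgl2 marks in part, were 235 in Mgl2DTR (3.16%) and 911 in WT (7.86%). Among those present, Csf1r stood at 63.6 CPM in Mgl2DTR and 103 CPM in WT (ratio 0.620, 0.518 to 0.737), Csf2rb2 at 49.9 and 24.5 CPM (2.04, 1.62 to 2.56) and Il7r at 83.2 and 54.5 CPM (1.53, 1.29 to 1.81, but 0.862 without cells holding markers of other lineages). Of all genes measured in the class, 3.34% were called higher and 3.33% lower. Flt3 (96.0 and 116 CPM), Csf2ra (94.3 and 109 CPM), Csf2rb (111 and 88.0 CPM) and Kit (33.3 and 36.2 CPM) were not called. Csf1r and Flt3 were found in the same cell in 14.0% of Mgl2DTR and 29.8% of WT cDC2-like cells.

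The higher calls came from 1 cluster, as the plot of cDC2-like clusters shows. In cluster 15 (104 Mgl2DTR and 406 WT cells), Csf2rb2 was 94.3 and 31.1 CPM (3.03, 2.31 to 3.96), Csf2rb 111 and 55.7 CPM (1.99, 1.58 to 2.502), Il7r 160.0 and 92.5 CPM (1.73, 1.43 to 2.08) and Csf1r 32.4 and 72.8 CPM (0.445, 0.301 to 0.638), where 4.85% of all genes were called higher and 3.89% lower. In cluster 9 (131 and 505 cells), Csf2rb2 was 15.9 and 18.8 CPM, Csf2rb 112 and 116 CPM and Il7r 24.2 and 21.9 CPM, and none was called. Csf1r was 87.6 and 128 CPM there (0.684, 0.556 to 0.834, not called, where 3.29% of all genes were called lower), and 77.0 and 134 CPM (0.573, called lower) without called doublets. The 3 higher ratios of cluster 15 stayed called without its called doublets (2.89, 2.01 and 1.64; 95 and 372 cells).

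Csf2rb2, Csf2rb and Il7r are also receptors of pDC-like cells, and pDC markers differed with them. The pDC list summed to 5022 CPM in Mgl2DTR and 3444 CPM in WT cells of cluster 15 (6 of 10 measured markers higher and 1 lower), while the cDC2 list stood at 3911 and 4123 CPM. With all cells that held markers of another lineage left out, cluster 15 kept 32 and 200 cells, too few to compare. In the whole class the same step gave 23.9 and 17.97 CPM of Csf2rb2 (ratio 1.33), 38.4 and 44.6 CPM of Il7r (0.862) and 73.9 and 116 CPM of Csf1r. Cluster 9 then made up 112 of the 144 Mgl2DTR and 392 of the 592 WT cells. Its own Il7r was 15.8 and 16.3 CPM and its Csf2rb2 14.8 and 17.9 CPM, neither called. These class ratios therefore do not tell whether the differences of cluster 15 remained. The part of pDC-like cells or RNA in the higher ratios was not tested.

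**Figure D5:**
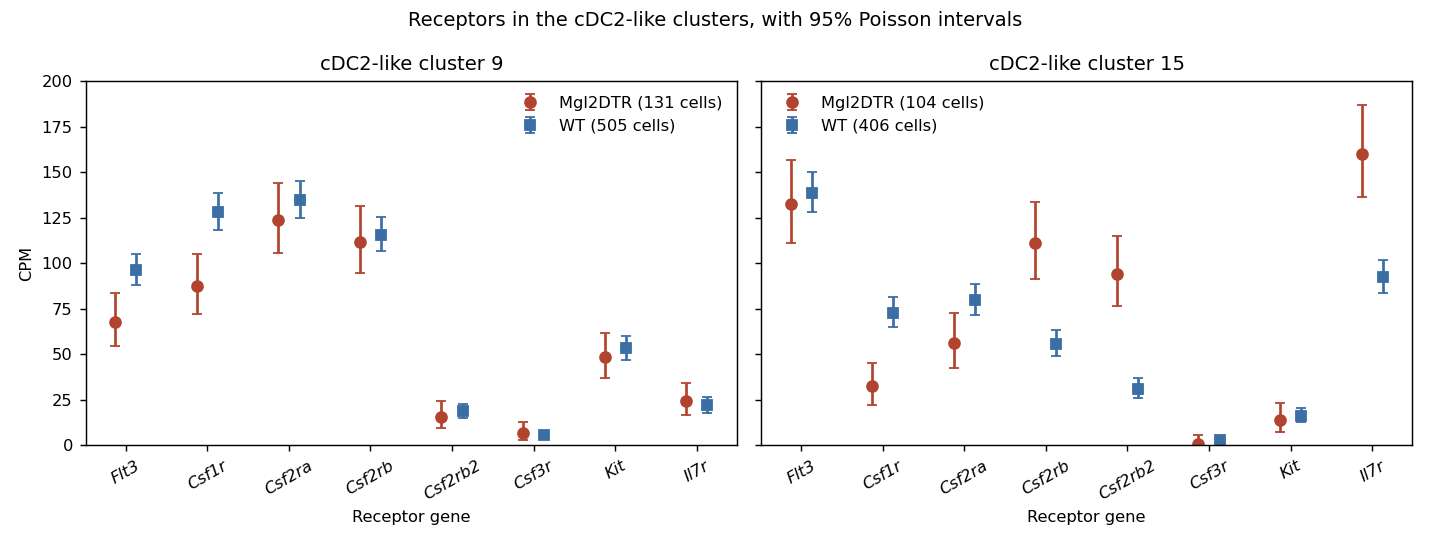
Summed CPM of the 8 receptors in the cDC2-like clusters 9 (131 Mgl2DTR and 505 WT cells) and 15 (104 and 406 cells), with 95% exact Poisson intervals, Mgl2DTR beside WT. In cluster 15, Csf2rb2, Csf2rb and Il7r are higher and Csf1r lower in Mgl2DTR, while in cluster 9 the points of both genotypes are close except for Csf1r (87.6 and 128 CPM) and Flt3 (67.9 and 96.3 CPM).

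Lymphoid cells differed in Il7r and Kit. In NK or innate lymphoid cell-like cells (305 Mgl2DTR and 322 WT), Il7r was 634 and 300.3 CPM (ratio 2.11, 1.85 to 2.41) and Kit 47.3 and 21.8 CPM (2.17, 1.32 to 3.64), the only members with enough counts there, while 3.40% of all genes were called higher. An Il7r UMI was in 57.7% of Mgl2DTR and 31.4% of WT cells, and in 51.5% and 27.7% after thinning to 2000 UMIs. The Il7r-rich cluster 20 made up 223 of the Mgl2DTR and 144 of the WT cells, and within it Il7r was 796 and 557 CPM (1.43, 1.25 to 1.64), under the size that is called. Kit was called higher within cluster 20 (49.8 and 18.4 CPM; 2.72, 1.37 to 5.85), on 42 and 11 counts, with 3.91% of all genes. The T cell or thymocyte list stood at 3287 CPM in Mgl2DTR and 2469 CPM in WT over the class, and at 3997 and 3915 CPM within cluster 20.

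In T cell or thymocyte-like cells, Il7r was 203 CPM in Mgl2DTR and 130.3 CPM in WT (1.56, 1.402 to 1.73, but 1.44 without called doublets and 1.397 without cells holding other markers, not called) and Csf2ra 21.9 and 33.1 CPM (0.664, 0.487 to 0.888); 3.26% of all genes were called higher and 3.52% lower. The clusters low in Il7r were filled mostly by WT cells: cluster 19 held 18 Mgl2DTR and 372 WT cells and cluster 31 held 10 and 117. Within cluster 0 Il7r was 291 and 227 CPM (1.28, 1.13 to 1.44, not called). The NK or innate lymphoid cell list summed to 633 CPM in Mgl2DTR and 380 CPM in WT over the class (7 of 10 higher), and its part was not tested. Without called doublets Csf2ra was 9.92 CPM in Mgl2DTR and 11.9 CPM in WT. B cell-like cells had Kit at 23.7 and 12.04 CPM (1.97, called higher, with 6.73% of all genes), and 10.8 and 6.61 CPM without called doublets.

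Csf3r was also called higher in 3 classes that hold little of it. It was 19.5 CPM in Mgl2DTR and 4.50 CPM in WT activated dendritic cell-like cells (4.33, 3.15 to 5.999), 26.7 and 1.29 CPM in B cell-like cells (20.7, 6.76 to 103, from 61 and 3 counts) and 2.35 and 1.27 CPM in cDC1-like cells (1.86). The backgrounds of these classes were 4.36%, 6.73% and 1.59% of all genes called higher. The neutrophil marker list summed to 2191 CPM in Mgl2DTR and 554 CPM in WT activated dendritic cell-like cells (11 of 11 measured markers higher). It was 4039 and 599 CPM in B cell-like cells (8 of 9 higher), but 353 and 316 CPM in cDC1-like cells (2 of 10 higher). Its part in the Csf3r ratios was not tested. Without called doublets, Csf3r was 0.991 and 0.559 CPM in activated dendritic cell-like and 0.990 and 0.883 CPM in cDC1-like cells. B cell-like cells then had 6 and 0 counts of it, and all 3 classes were under the 50 counts that a ratio needs. Without cells holding markers of other lineages, Csf3r was 8.89 and 2.29 CPM in activated dendritic cell-like cells (3.88, 2.24 to 6.91, called higher). After that step it was 1.73 and 1.14 CPM in cDC1-like cells (1.52, not called), and B cell-like cells had 16 and 3 counts. In cDC1-like cells Il7r was called lower (2.08 and 3.85 CPM; 0.540), with 1.94% of all genes, and stood at 1.38 and 1.32 CPM without called doublets; the T cell or thymocyte list was 139 and 215 CPM there (9 of 12 lower).

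pDC-like cells had 0 of 7 measured receptors called, where 1.59% of all genes were called higher and 1.99% lower. Without called doublets Kit was called higher there, at 7.74 and 4.398 CPM (1.76, 1.02 to 3.095). In cluster 1, the main pDC-like cluster (789 Mgl2DTR and 865 WT cells), Il7r was 258 and 263 CPM, Csf2rb 160.2 and 159.8 CPM and Csf2rb2 124 and 133 CPM. Il7r in activated dendritic cell-like cells (63.8 and 92.6 CPM) was not called, but was called lower without cells holding other markers (65.1 and 104 CPM, 0.627, 0.548 to 0.714). By cluster after that step, Il7r was 10.1 and 19.3 CPM in cluster 13 (0.523, called lower). In cluster 3 (470 and 599 cells) it was 55.8 and 43.8 CPM. In the Il7r-rich cluster 10 (115 and 411 cells) it was 188 and 227 CPM, and neither was called. cDC1-like and activated dendritic cell-like Flt3 (ratios 1.13 and 1.34), cDC1-like Kit (67.6 and 69.9 CPM) and macrophage-like Csf1r were likewise not called.

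Of the genes around the receptors, ligands were mostly rare: of 8 ligand genes in the tables, at most 2 had the counts for a ratio in any class. Ratios of these genes, and of the signalling, inhibitor and target genes that follow, are given with called doublets kept in. The part of doublets in them was not tested. Csf1, the ligand of Csf1r, was 115 CPM in Mgl2DTR and 44.7 CPM in WT neutrophil-like cells (2.58, 2.13 to 3.14), but 394 and 400 CPM within cluster 7 (not called), which held most Mgl2DTR cells of the class. It was also called higher in B cell-like (15.8 and 6.02 CPM, 2.62) and monocyte-like cells (7.14 and 2.71 CPM, 2.64), on 36 and 14 and on 52 and 8 counts. Flt3l, the FLT3 ligand, was 54.5 and 46.3 CPM in NK or innate lymphoid cell-like cells and 2.44 and 4.41 CPM in cDC1-like cells (0.554, called lower). None of the partner chains Il2rg, Crlf2, Il3ra and Il5ra was called in any class, with up to 3 of the 4 measured. Crlf2, which makes the TSLP receptor with Il7r, stood at 132 and 113 CPM in cDC2-like cells.

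Of the genes that act below the receptors, several were called in neutrophil-like cells, a class where 6.80% of all genes were called higher and 6.70% lower. Of 8 STAT5 and survival targets measured there, 4 were higher and 1 lower (median log2 ratio 0.54, against -0.06 for all genes), of 11 inhibitors 2 and 2 (median 0.07), and of 15 proximal signalling genes 1 and 2 (median 0.19). Pim1, a kinase induced by STAT5, was 1003 CPM in Mgl2DTR and 273 CPM in WT (3.68, 3.41 to 3.97), Mcl1, a survival gene, 904 and 444 CPM (2.04), Bcl2l1 26.5 and 15.8 CPM (1.68), and Cish, a STAT5-induced inhibitor, 28.6 and 14.4 CPM (1.98). Socs3, which limits G-CSF signalling, was 99.2 and 24.8 CPM (3.99, 3.12 to 5.18) and Gab2, an adaptor, 19.8 and 9.07 CPM (2.19). Socs2 (7.47 and 29.2 CPM, 0.256), which is also on the target list, Stat5a (8.11 and 18.8 CPM, 0.431), Cblb (0.599) and Ptpn11 (0.626) were lower. Pim1 was called higher within cluster 7 (3020 and 1393 CPM, 2.17, with 6.24% of all genes) and within cluster 18 (224 and 135 CPM, 1.66). Socs3 (25.1 and 5.99 CPM, 4.19) and Socs2 (5.21 and 36.3 CPM, 0.143) were called within cluster 18, where 3.14% of all genes were higher and 7.55% lower. Pim1 was the only target called higher in either cluster, of 6 measured in cluster 7 and 7 in cluster 18. Proximal signalling genes were not called higher in either cluster, nor inhibitors in cluster 7. The class calls of Mcl1, Bcl2l1, Cish and Gab2 were thus not found within these clusters. In cluster 18, 4 of 12 proximal signalling genes, 2 of 9 inhibitors and 2 of 7 targets were called lower, with 7.55% of all genes. In cluster 7 these were 0 of 10, 1 of 7 and 0 of 6.

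In the dendritic classes, the shares of all genes called higher and lower were 1.59% and 1.94% in cDC1-like, 4.36% and 3.07% in activated dendritic cell-like, 3.34% and 3.33% in cDC2-like and 1.59% and 1.99% in pDC-like cells. Called doublets are kept in here too, and Socs2 is also on the activated dendritic cell marker list. cDC1-like cells had Socs3 at 17.8 CPM in Mgl2DTR and 6.72 CPM in WT (2.65, 2.26 to 3.11), Jak3 at 5.47 and 3.09 CPM (1.77) and Cish at 4.48 and 2.94 CPM (1.52) called higher and Socs2 at 2.53 and 4.23 CPM (0.598) lower. Activated dendritic cell-like cells had Bcl2l1, a survival gene, at 83.3 and 41.5 CPM (2.01) and Pik3r1 at 253 and 158 CPM (1.60) higher and Bcl2 at 4.45 and 8.33 CPM (0.535) lower. cDC2-like cells had Jak3 at 15.4 and 7.07 CPM (2.17) and Dok2 at 49.9 and 28.9 CPM (1.73) higher, and pDC-like cells had Bcl2a1b at 47.4 and 92.8 CPM (0.511) lower. The median log2 ratio of the 15 proximal signalling genes was 0.09 in cDC1-like, 0.12 in activated dendritic cell-like, 0.13 in cDC2-like and -0.02 in pDC-like cells, against all-gene medians between -0.02 and 0.03.

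In the lymphoid classes and in monocytes, T cell or thymocyte-like cells had Cblb, an inhibitory ligase, at 109 CPM in Mgl2DTR and 48.6 CPM in WT (2.24), Cish at 26.5 and 12.7 CPM (2.09) and Pik3cd at 120.0 and 74.9 CPM (1.60) higher and Bcl2l1 (0.612) lower. NK or innate lymphoid cell-like cells had Cish (49.99 and 27.9 CPM, 1.79), Stat5a (1.65) and Bcl2a1b (1.55) higher and Socs3 (17.3 and 35.8 CPM, 0.483, with 3.34% of all genes) lower. Monocyte-like cells had Dok2 at 95.6 and 40.9 CPM (2.34) and Bcl2l1 (1.69) higher, with 7.06% of all genes, and Id2 (167 and 326 CPM, 0.512), Jak2 (0.551), Bcl2a1b (0.589) and Stat5a (0.653) lower. Macrophage-like cells had Jak3 (1.69), Bcl2 (1.57), Dok2 (1.56) and Ptpn11 (1.52) higher, with 4.94% of all genes, and B cell-like cells Pim1 (289 and 159 CPM, 1.82), Pik3cd (1.75) and Inpp5d (1.55) higher and Socs2 (0.660, with 3.36% of all genes) lower.

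Over the 33 clusters with at least 50 WT cells, the genes most like each receptor among 11144 were named by Pearson's r of log2(CPM + 10) in WT cells. Csf3r came with Clec4e (0.975), Cd300lb (0.963) and Slc16a3 (0.961), Csf1r with Cebpa (0.946), Clec4a3 (0.940) and Clec4a1 (0.931), and Csf2ra with Spi1, the gene of PU.1 (0.941), and Myadm (0.897). Csf2rb came with Ncf1 (0.910), Pirb (0.909) and Itprid2 (0.900), and Csf2rb2 with Itprid2 (0.842), its neighbour Csf2rb (0.836) and Rell1 (0.836). Flt3 came with Cbfa2t3 (0.905), Erlin1 (0.875) and Dapp1 (0.865), Kit with Ppfibp1 (0.853), Btla (0.851) and Tpm2 (0.845), and Il7r with Ppdpf (0.794), Ccnd2 (0.772) and Pkp3 (0.744). Among the members, Csf2ra and Csf2rb had r = 0.772 and Flt3 and Kit 0.595, while Csf3r and Flt3 had -0.477. The points share 1 pool of droplets, its free RNA and doublets and their depth, so these are descriptions.

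Small groups outside the 10 classes held some of the highest levels. Kit was 151 CPM in Mgl2DTR and 193 CPM in WT cells of cluster 34 (32 and 67 cells, unnamed) and 98.4 and 35.7 CPM in cluster 38 (45 and 13 cells, unnamed), and Il7r was 125 and 262 CPM in cluster 38. Csf2rb, the chain that the IL-5 receptor uses too, was 225 and 315 CPM in cluster 30 (91 and 37 cells), which stayed unnamed and has the eosinophil genes Ccr3 and Alox15 among its leading genes. The stem or progenitor-like cluster 32 (93 and 27 cells, median 36494 and 26187 UMIs) held Csf2ra at 100.2 and 103 CPM, Csf2rb at 82.8 and 54.7 CPM, Csf3r at 41.5 and 71.2 CPM, Kit at 19.8 and 40.7 CPM and Flt3 at 4.07 and 6.36 CPM. Csf2ra and Csf2rb were found together in 90.3% of its Mgl2DTR and 55.6% of its WT cells, and in 2.15% and 3.70% after thinning to 2000 UMIs. Its Cd34 and Meis1 were at 0 in both genotypes, and it was too small in WT for a ratio.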

How the data were processed

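The deposited tables are raw counts of UMIs per gene and cell, and of hashtag UMIs, from 10x Chromium 3′ v3 libraries per the labels' protocols. Cell Ranger 6.0.0, Seurat 4.0.4 and mm10 are named per the submitters' processing notes, while cell filters and gene models are not given in the sources used here. Genotype came from the hashtag call and its margin, a score, both in the authors' deposited annotation. Cells with a pair of hashtags or none were left out, and 0 barcodes were shared between the tables. One more hashtag, named differently in the hashtag tables and the annotation, was not analysed here.

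From 2000 variable genes without the receptors and Mgl2, 30 principal components and 20 neighbours, Leiden clustering at resolution 1 (leidenalg 0.10.2, igraph 0.11.9, Python 3.11.15) gave 43 clusters. A cluster was named where at least 3 markers and 40% of a list were found in at least 20% of its cells at 2 times the level of the other cells with 10 CPM added. By this rule 33 clusters were named and 10 stayed unnamed. Doublets were called where at least 12 of a cell's 50 nearest neighbours carried 2 hashtags, which marked 81.3% of the cells with 2 hashtags. UMIs were summed per genotype and class and divided by the class total. Intervals are 95% exact Poisson, Clopper-Pearson or conditional binomial, and cover counting error only. A ratio needed 50 cells of each genotype. Scripts were tested on simulated data. Shares of cells were also taken from cells thinned to 2000 UMIs, with shallower cells left out.

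The 8 receptors, called members of the ligand, partner, signalling, inhibitor and target lists (at most 6 a list by size), and the 3 genes most like each receptor are named, apart from 1 that is not reported here. Of the 46 listed genes, 44 were in the tables. The members and lists were chosen with earlier results of these data known.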

Additional observations from a re-analysis of the deposited data

Results flagged for a closer look

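4 receptors were called higher in some classes and lower in others, and whether the classes differ from each other was not tested. Without called doublets, only Csf2rb2 of these 4 was still called both ways. Ratios are Mgl2DTR over WT. Csf1r, the CSF1 receptor, was lower in cDC2-like cells (ratio 0.620) and higher in neutrophil-like cells (1.72, but 1.41 without called doublets, 1.26 without cells holding other markers and 1.17 with equal totals per cell, all under 1.5). Csf2rb2, the IL-3 chain, was higher in cDC2-like cells (2.04, but 1.33 without cells holding other markers) and lower in monocyte-like cells (0.624). Kit was higher in B cell-like (1.97) and NK or innate lymphoid cell-like cells (2.17) and lower in macrophage-like (0.627), monocyte-like (0.194) and neutrophil-like cells (0.648). Without called doublets Kit had too few counts in these classes except NK or innate lymphoid cell-like cells. In neutrophil-like cells its direction turned round with equal totals per cell. Il7r was higher in NK or innate lymphoid cell-like (2.11), T cell or thymocyte-like (1.56, but 1.44 without called doublets), cDC2-like (1.53) and neutrophil-like cells (1.88) and lower in cDC1-like (0.540) and monocyte-like cells (0.420). Without called doublets its ratio was 1.04 in cDC1-like and 1.47 in cDC2-like cells, and neutrophil-like and monocyte-like cells had too few counts. Without cells holding other markers the cDC2-like ratio was 0.862. That step left the cDC2-like class mostly with cells of cluster 9, for Csf2rb2 too.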

How the results depend on the processing

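Leaving out called doublets left 6 higher and 3 lower calls of 52 measured, and leaving out cells with markers of other lineages 5 and 6 of 53. At least 200 counts gave 7 and 3 of 48, a ratio of 2 gave 5 and 4, and scaling each cell to the same total gave 6 lower. By cluster, steps added after seeing the data, calls were 14 higher and 11 lower, 5 and 10 without doublets, and 4 and 8 without cells holding other markers. Shares of all genes called are given for the main setting only, so counts in the other settings have no background beside them. Il7r turned round in cDC1-like cells (1.04 without doublets, 1.12 without other markers) and in cDC2-like cells (0.862 without other markers), and Kit in neutrophil-like cells (1.97, each cell scaled). The causes were not tested. The step without other markers also left the cDC2-like class mostly with cells of cluster 9. Summed over all settings, 200 of the other called ratios remeasured kept their size and 15 moved. Changing only a cut-off for counts, cells or ratio size cannot move a ratio, and those settings are counted in the 200. Without doublets 9 kept their size, 2 moved and 11 had too few counts. Without other markers 10 kept it, 3 moved and 8 had too few counts. With each cell scaled 16 kept it and 6 moved, and at 200 counts 13 had too few counts. Shares of cells stayed within 1.5 times in 93 of 140 without doublets and 12 of 140 after thinning to 2000 UMIs, which left 0 classes, against 7, with both GM-CSF chains in at least 10% of WT cells. The highest class changed for Csf1r (to monocyte-like, in 3 settings) and Csf2ra (to neutrophil-like or macrophage-like, in 1 each). No paired analysis was possible because each genotype is 1 sample; its animals, and effects of animal or sort, cannot be told apart from genotype. Free RNA was not removed.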
